A study of Homo sapiens with 3 samples.

Results

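The RNA levels of 10 genes of glycolysis and the hypoxia response were followed across the cell classes of stem-cell-derived islets. The genes are PFKP, ALDOA, GAPDH, PGK1, ENO1, PKM, LDHA, PDK1, VEGFA and BNIP3. They were chosen by name from the 36601 genes counted, with earlier results of these data known, and all 10 were found. HUES8, the source of the islets, is an established line of human embryonic stem cells. There were 3 groups of cells, 1 library each: CD49a-positive cells, CD49a-negative cells and unsorted cells. The sort used magnetic beads and an antibody to CD49a, the integrin subunit encoded by ITGA1, and each group was left to re-aggregate for 7 days before it was dispersed for droplet single-cell RNA sequencing. All groups thus share the line, the differentiation and the new aggregation, and the RNA was read 7 days after the sort. The labels name 1 line and mention no change of genotype, drug or low-oxygen culture. Each group being 1 library, nothing was tested, and every interval below is an exact 95% interval for counting error only.

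Glycolysis splits glucose into pyruvate in the cytosol. Pyruvate then either enters the mitochondria or is reduced to lactate by lactate dehydrogenase. Beta cells sense glucose through this route, and mature beta cells are known for low LDHA, so that most pyruvate goes to the mitochondria. When oxygen is low, HIF1A and EPAS1 (HIF-2 alpha) are no longer degraded, pair with ARNT and bind the hypoxia response element, a short sequence near their target genes. Most glycolytic enzymes, PDK1, VEGFA and BNIP3 are well-known targets of this pathway.

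The core of that element was searched as ACGTG and GCGTG on both strands in RefSeq promoter windows (GRCh38.p14), which run from 250 bases before to 50 bases after a gene's start. CACGTG reads as ACGTG on both strands and so counts as 2 matches. Windows were present for 9 of the 10 genes, and each of the 9 had at least 1 window with a match. Of all 35116 windows of this length, 48.4% held a match, so presence alone sets no gene apart. Matches were counted in the first window listed for each gene, and LDHA has 2 windows. The windows of PGK1, LDHA and BNIP3 held 4, 6 and 6 matches and that of ENO1 held 2. Stretches of these windows are shown for 1 of 2 reasons. They hold the most matches of the windows counted (PGK1, LDHA, BNIP3). Or they belong to an enzyme that was lower than in INS-rich cells in every comparison between classes (ENO1). The stretches are given on the gene's strand, 5′ to 3′, with the matches in capitals. That of PGK1 holds 3 of the 4 matches of its window and that of LDHA 5 of the 6. PGK1 is at chrX:78104027-78104079 (plus strand), ENO1 at chr1:8878744-8878862 (minus strand), LDHA at chr11:18394368-18394504 (plus strand) and BNIP3 at chr10:131982013-131982076 (minus strand).
PGK1: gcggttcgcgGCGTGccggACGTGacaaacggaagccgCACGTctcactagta
ENO1: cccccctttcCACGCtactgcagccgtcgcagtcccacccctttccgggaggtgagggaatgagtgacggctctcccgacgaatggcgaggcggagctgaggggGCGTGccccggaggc
LDHA: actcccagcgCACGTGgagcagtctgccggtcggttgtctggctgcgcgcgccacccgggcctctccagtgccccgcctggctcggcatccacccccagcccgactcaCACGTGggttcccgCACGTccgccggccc
BNIP3: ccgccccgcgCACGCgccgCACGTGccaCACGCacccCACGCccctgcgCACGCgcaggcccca
A match describes the letters of the window and does not show that a factor binds there.

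Cells were classed by the share of their UMIs (counted RNA molecules) that came from 1 hormone or enzyme gene, none of them among the 10. A cell past exactly 1 limit was called INS-rich (insulin), GCG-rich (glucagon), SST-rich (somatostatin) or TPH1-rich (TPH1 makes serotonin and marks enterochromaffin cells). The classes are ranges on a continuous scale. Across the 3 libraries they held 1138 GCG-rich, 207 SST-rich, 922 TPH1-rich and 2324 INS-rich of 6626 kept cells, with 627 cells past several limits and 1408 past none. Within a factor of 1.5 of their own limit lay 146 of the 1138 GCG-rich, 29 of the 207 SST-rich, 157 of the 922 TPH1-rich and 465 of the 2324 INS-rich cells. Markers other than the gene used followed the names: IRX1, IRX2, TTR and GC were higher in GCG-rich than in INS-rich cells, HHEX and LEPR in SST-rich cells, and IAPP, PDX1, ACVR1C and HADH were lower in all 3 classes than in INS-rich cells. The median INS level of cells was 6404 to 6885 CPM in GCG-rich, 6131 to 13105 CPM in SST-rich and 1207 to 6305 CPM in TPH1-rich cells, against 89340 to 95519 CPM in INS-rich cells, where CPM is the usual scaling of UMIs to a common total. Whether that INS came from free RNA, from pairs of cells or from the cells themselves was not tested.

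The libraries held 4512, 2566 and 2811 barcodes and 127119509, 88397368 and 114479071 UMIs (positive, negative, unsorted), of which 2394, 1976 and 2256 barcodes were kept, with median depths of 48538, 36997 and 42361 UMIs. The positive library lost 46.9% of its barcodes to the filter (45.5 to 48.4), the negative library 23.0% (21.4 to 24.7) and the unsorted library 19.7% (18.3 to 21.3). Between 2 and 6 barcodes were shared by any 2 libraries. Ribosomal protein genes took 3.74% of the UMIs of positive and 5.44% of negative TPH1-rich cells, and 5.24 to 6.65% in the other classes of all libraries but unsorted TPH1-rich cells, at 4.01%. Acinar, mesenchymal and endothelial markers summed to at most 6.60 CPM in every class and library except SST-rich cells of the positive library, where PRSS1 alone stood at 66.1 CPM. The 4 endothelial markers (PECAM1, VWF, KDR and CDH5) summed to at most 0.285 CPM. The 5 duct markers were counted in every class and summed to 76.2 to 113 CPM in GCG-rich, 121 to 132 CPM in SST-rich and 63.0 to 74.3 CPM in TPH1-rich cells, against 42.1 to 48.2 CPM in INS-rich cells. Most of that was KRT19, which passed the 1.5-fold limit described below in GCG- and SST-rich cells (median log2 ratios over INS-rich cells 0.76 and 1.43). The part of these cells or this RNA in the class differences was not tested.

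**Figure D1:**
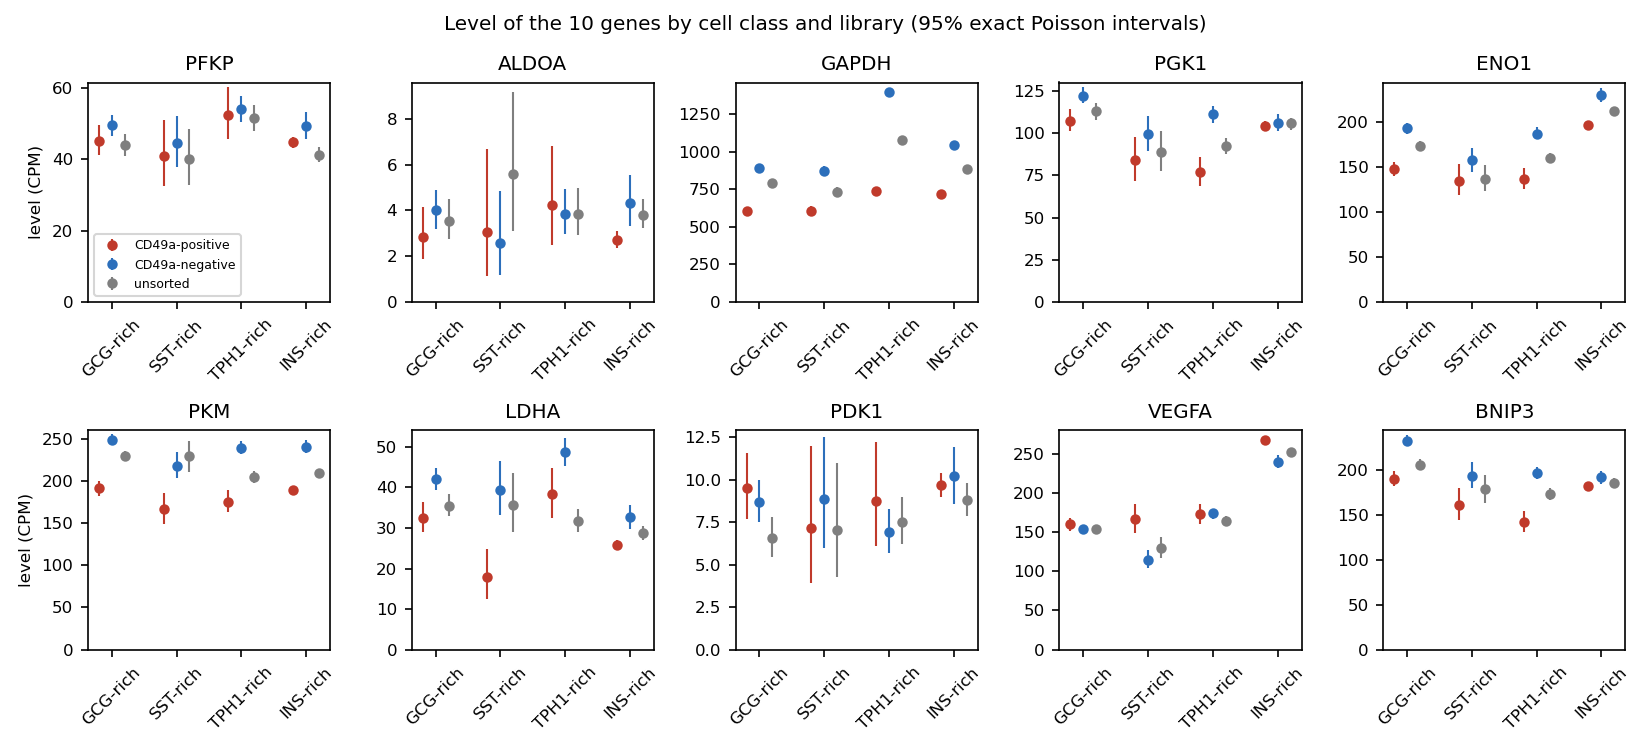
Level of each of the 10 genes in CPM (vertical axis, from 0, its own scale in each panel) in GCG-, SST-, TPH1- and INS-rich cells of the CD49a-positive, CD49a-negative and unsorted libraries. Points are summed UMIs of 1 class in 1 library and lines are exact 95% Poisson intervals; VEGFA lies at 239 to 268 CPM in INS-rich cells and at 115 to 174 CPM in the other classes.

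PFKP (ENSG00000067057, GRCh38 chromosome 10, 3066333 to 3137712, plus strand) encodes the platelet form of phosphofructokinase, which commits glucose to glycolysis. It stood at 45.2, 49.5 and 44.0 CPM in GCG-rich cells of the positive, negative and unsorted libraries. The values were 41.0, 44.5 and 40.1 CPM in SST-rich cells, 52.5, 54.0 and 51.5 CPM in TPH1-rich cells and 44.7, 49.3 and 41.3 CPM in INS-rich cells. TPH1-rich cells were thus highest and SST-rich cells lowest in each library, but all 12 values lay within 1.35-fold and many intervals overlapped. In 1 library TPH1-rich cells fell below INS-rich cells when hormone genes were left out of the totals or with median-of-ratios size factors.

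ALDOA (ENSG00000149925, chromosome 16, 30064164 to 30070457, plus strand), the aldolase that cleaves fructose bisphosphate, was barely counted, at 2.57 to 5.57 CPM over the 12 class and library sums with 770 UMIs in all. Its class order differed between the libraries. In GENCODE 29 another protein-coding gene on the same strand, AC093512.2, covers 99.4% of ALDOA. That gene was itself at 0.588, 0.698 and 0.781 CPM in kept cells of the positive, negative and unsorted libraries. The counting of reads in such overlaps is not given in the sources used here, so the ALDOA level is uncertain.

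GAPDH (ENSG00000111640, chromosome 12, 6533927 to 6538374, plus strand) oxidises glyceraldehyde phosphate in the middle of the pathway. It stood at 608 CPM (593 to 624), 888 (876 to 901) and 794 (781 to 806) in GCG-rich cells of the positive, negative and unsorted libraries, and at 605 (571 to 640.2), 873 (842 to 904) and 735 (703 to 768) in SST-rich cells. TPH1-rich cells had 740.1 CPM (714 to 767), 1399 (1381 to 1417) and 1080.0 (1064 to 1097), against 718 (712 to 724), 1041 (1024 to 1057) and 885 (875 to 894) in INS-rich cells. TPH1-rich cells were highest in each library, but in the positive library their interval overlapped that of INS-rich cells. In 1 library the direction turned without hormone genes in the totals, with cells weighted equally and under median-of-ratios scaling. GAPDH has 62 named pseudogenes in GENCODE 29, none of them among the counted genes, so reads shared with them may be assigned to it or lost.

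PGK1 (ENSG00000102144, chromosome X, 77910739 to 78129296, plus strand) makes the first ATP of the pathway. It stood at 107, 122 and 113 CPM in GCG-rich cells of the positive, negative and unsorted libraries, at 84.0, 99.2 and 88.7 CPM in SST-rich cells, at 77.0, 111 and 92.4 CPM in TPH1-rich cells and at 104, 106 and 106 CPM in INS-rich cells. GCG-rich cells were highest in each library, with intervals that overlapped those of INS-rich cells in the positive and unsorted libraries, and the direction turned in 1 library with median-of-ratios size factors. Per ribosomal protein UMI, the median log2 ratio to INS-rich cells was 0.31 in TPH1-rich and 0.17 in GCG-rich cells. That scaling moved the median of all genes to 0.71 in TPH1-rich and 0.09 in GCG-rich cells. ATP7A, at 15.3 to 16.3 CPM, overlaps 63.9% of the annotated PGK1 gene on the same strand. The overlap ends at position 78050395. The promoter stretch shown above starts further along, at 78104027, inside the annotated span, so the overlap lies upstream of the start used for that window.

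ENO1 (ENSG00000074800, chromosome 1, 8861000 to 8879250, minus strand) is the common form of enolase. It stood at 148 CPM (140.3 to 156), 193 (187 to 199) and 173 (168 to 179) in GCG-rich cells, and at 135 (119 to 153), 158 (145 to 171) and 137 (123 to 152) in SST-rich cells of the positive, negative and unsorted libraries. TPH1-rich cells had 137 (126 to 149), 187 (181 to 194) and 160.0 (154 to 166), against 197 (194 to 199.9), 230.1 (222 to 238) and 212 (207 to 217) in INS-rich cells. INS-rich cells were highest in each library, with intervals that stood clear of the others. SST-rich cells had the lowest values, but in the positive library their interval overlapped those of GCG- and TPH1-rich cells.

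PKM (ENSG00000067225, chromosome 15, 72199029 to 72231822, minus strand) encodes the pyruvate kinase that ends the pathway in most tissues. It ranged over 1.49-fold, from 167 CPM in SST-rich cells of the positive library to 248 CPM in GCG-rich cells of the negative library. In each library it was highest in GCG-rich cells, at 191, 248 and 229 CPM (positive, negative, unsorted), against 189, 240.4 and 209.7 CPM in INS-rich cells. In the positive and negative libraries these intervals overlapped, and the direction turned in 1 library with median-of-ratios size factors. In the unsorted library SST-rich cells, at 229 CPM, matched the GCG-rich value. Per ribosomal protein UMI, the median log2 ratio to INS-rich cells was larger in TPH1-rich (0.56) than in GCG-rich cells (0.21). The median of all genes was then 0.71 in TPH1-rich and 0.09 in GCG-rich cells.

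LDHA (ENSG00000134333, chromosome 11, 18394388 to 18408425, plus strand), which turns pyruvate into lactate, was counted at a low level in every class. It stood at 32.5 CPM (29 to 36.3), 42.0 (39.3 to 44.7) and 35.5 (32.9 to 38.3) in GCG-rich cells of the positive, negative and unsorted libraries. SST-rich cells had 17.9 (12.5 to 24.9), 39.3 (33.1 to 46.5) and 35.6 (28.9 to 43.5). TPH1-rich cells had 38.3 (32.4 to 44.8), 48.7 (45.4 to 52.2) and 31.8 (29.1 to 34.8), against 25.8 (24.7 to 27.0), 32.7 (29.8 to 35.8) and 28.7 (27.0 to 30.4) in INS-rich cells. GCG-rich cells thus lay above INS-rich cells in all 3 libraries with intervals that did not overlap, by 1.26-fold (1.12 to 1.42), 1.28-fold (1.15 to 1.44) and 1.24-fold (1.12 to 1.36). SST-rich cells lay below INS-rich cells in the positive library, on 35 UMIs from 41 cells, and above them in the other 2. LDHA and its companions among the genes held low in mature beta cells (13 genes) summed to 161 to 185 CPM in GCG-rich, 187 to 212 CPM in SST-rich and 161 to 196 CPM in TPH1-rich cells, against 168 to 178 CPM in INS-rich cells.

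PDK1 (ENSG00000152256, chromosome 2, 172555373 to 172608669, plus strand) encodes a kinase that switches off pyruvate dehydrogenase, the entry of pyruvate to the citric acid cycle. It was near the limit of what could be compared, at 6.56 to 10.2 CPM over the 12 sums. INS-rich cells had the highest value in each library (9.68, 10.2 and 8.78 CPM in the positive, negative and unsorted libraries), and most intervals overlapped.

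VEGFA (ENSG00000112715, chromosome 6, 43770184 to 43786487, plus strand) encodes the secreted growth factor through which beta cells keep islet vessels. It stood at 160.2 CPM (152 to 168), 154 (149 to 159) and 154 (148 to 159.5) in GCG-rich cells of the positive, negative and unsorted libraries. SST-rich cells had 167 (149 to 186), 115 (104 to 127) and 129.9 (117 to 144). TPH1-rich cells had 173 (159.9 to 186), 174 (167 to 180.1) and 164 (158 to 171), against 268 (264 to 272), 239 (232 to 248) and 252 (247 to 257) in INS-rich cells. The highest value of the other 3 classes, 174 CPM, lay below the lowest of INS-rich cells, 239 CPM. Per ribosomal protein UMI the median log2 ratio of TPH1-rich over INS-rich cells was -0.00, against -0.59 on CPM, and 2 of 3 libraries stayed below 0. That scaling moved the median of all genes in this comparison to 0.71. The VEGFA ratio lay further below 0 under median-of-ratios scaling (-0.75), without hormone genes in the totals (-0.74) and when cells had equal weight (-0.63). Leaving mitochondrial genes out of the totals gave -0.57. In each of these settings all 3 libraries were below 0. In the negative and unsorted libraries the order below INS-rich cells was TPH1-, GCG- and SST-rich cells, with TPH1- and GCG-rich intervals that overlapped in the unsorted library. In the positive library all 3 overlapped.

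BNIP3 (ENSG00000176171, chromosome 10, 131966455 to 131982013, minus strand) encodes a mitochondrial protein that promotes the removal of mitochondria. It stood at 190.4, 233 and 206 CPM in GCG-rich cells, 161, 194 and 179 CPM in SST-rich cells, 142, 197 and 174 CPM in TPH1-rich cells and 183, 192 and 186 CPM in INS-rich cells (positive, negative, unsorted). GCG-rich cells were highest in each library, but in the positive library their interval of 182 to 199 CPM overlapped that of INS-rich cells. Per ribosomal protein UMI, TPH1-rich cells exceeded INS-rich cells by more than GCG-rich cells did (median log2 ratios 0.37 and 0.24). On that scale the median of all genes was 0.71 in TPH1-rich and 0.09 in GCG-rich cells. GENCODE 29 names 39 BNIP3 pseudogenes, none of them among the counted genes.

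The class comparison asked whether any of the 10 genes differed by at least 1.5-fold from INS-rich cells of the same library, in the same direction in all 3 libraries. It used log2 ratios with 10 CPM added to both sides, which understates changes of low genes, and genes with at least 50 CPM and 50 UMIs in 1 of the 6 sums. PFKP (in 2 of the comparisons), ALDOA, LDHA and PDK1 did not reach that level, so their ratios are described but could not be called. VEGFA was the only member past the limit. It was lower in GCG-rich than in INS-rich cells, at 0.598-fold (0.567 to 0.629), 0.641-fold (0.612 to 0.673) and 0.610-fold (0.585 to 0.636) in the positive, negative and unsorted libraries, where 6.39% of all 4415 genes compared were lower and 4.67% higher. It was lower in SST-rich than in INS-rich cells, at 0.621-fold (0.555 to 0.693), 0.482-fold (0.434 to 0.535) and 0.515-fold (0.462 to 0.573), where 3.35% of 4628 genes were lower and 4% higher. These are 1 of 6 members compared each time, too few to set against the background shares. In TPH1-rich cells VEGFA was at 0.644-fold (0.596 to 0.695), 0.725-fold (0.690 to 0.762) and 0.651-fold (0.622 to 0.680) and missed the limit in the negative library. There 2.86% of 4853 genes were lower, 7.42% were higher and no member was called.

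The call of VEGFA in GCG-rich cells was lost with 50 CPM added (median log2 ratio over the libraries -0.57, against -0.68), with mixed cells assigned to a class (-0.56) and with levels taken per ribosomal protein UMI (-0.58). The call in SST-rich cells was lost in the same settings and with doubled limits, with medians from -0.76 to -0.66 against -0.91.

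ENO1 was lower than in INS-rich cells in all 9 comparisons of 3 classes and 3 libraries, though by less than the limit in at least 1 library for each class. The median log2 ratio was -0.28 in GCG-rich and -0.52 in SST-rich cells. In TPH1-rich cells it was -0.39, where the median of all genes was 0.18. Per ribosomal protein UMI it was 0.20, a scaling that moved the median of all genes to 0.71. Under median-of-ratios scaling the ENO1 ratio in TPH1-rich cells was -0.54. It was -0.55 without hormone genes in the totals, -0.36 without mitochondrial genes and -0.57 when cells had equal weight. GAPDH lay at -0.23, -0.25 and 0.28 in GCG-, SST- and TPH1-rich cells. The median over the members that passed the level filter was -0.09, -0.24 and -0.10 in these 3 classes, against 0.00, 0.05 and 0.18 over all genes.

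**Figure D2:**
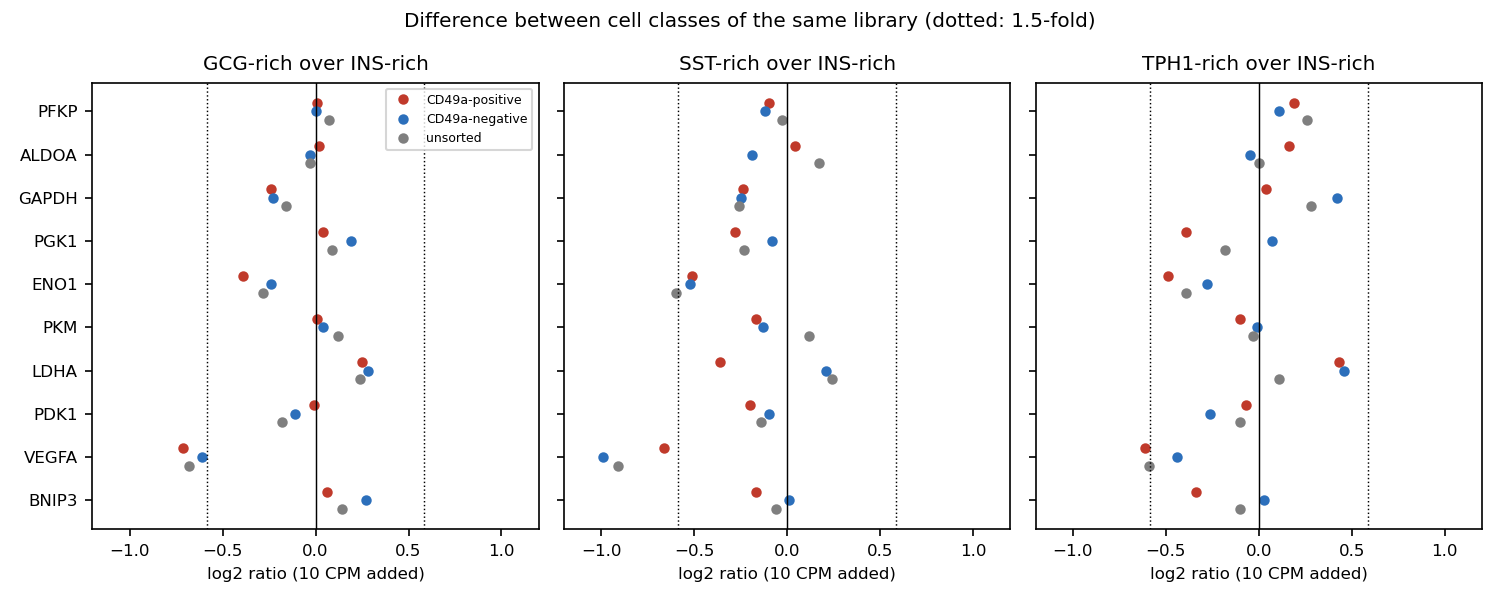
Log2 ratio of each gene (rows) in GCG-, SST- and TPH1-rich cells over INS-rich cells of the same library, with 10 CPM added to both sides (horizontal axis); points are the 3 libraries and dotted lines mark 1.5-fold. VEGFA lies past the lower line in all 3 libraries for GCG- and SST-rich cells and at -0.44 in the negative library for TPH1-rich cells.

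The rest of the pathway was described from 5 lists of genes. Of 15 other glycolysis enzymes, 7 passed the level filter in each comparison. PFKL, the liver form of phosphofructokinase, was lower in SST-rich cells, at 31.8, 36.8 and 29.3 CPM in the positive, negative and unsorted libraries, against 58.7, 67.3 and 61.3 CPM in INS-rich cells. It was also below INS-rich cells, without a call, in GCG-rich (36.7, 50.1 and 48.1 CPM) and TPH1-rich cells (37.0, 37.6 and 34.3 CPM). No enzyme of this list was past the limit in TPH1-rich cells. HK1 and HK2, the hexokinases that are normally low in beta cells, stood at 0.852 to 1.31 and 0.0265 to 0.0687 CPM in INS-rich cells. HK1 stood at 5.94 to 7.15 CPM in GCG-rich, 1.54 to 3.99 in SST-rich and 4.37 to 6.50 in TPH1-rich cells. HK2 was near 0 in these classes too, at 0.102 to 0.178, 0 to 0.285 and 0 to 0.326 CPM. None of the 10 glucose and lactate carriers and bisphosphatase regulators reached the level filter. Among them SLC16A1, the lactate carrier kept low in beta cells, was at 1.79 to 3.03 CPM in INS-rich cells. It was as low elsewhere, at 2.45 to 4.09 CPM in GCG-rich, 1.86 to 5.12 in SST-rich and 2.41 to 2.99 in TPH1-rich cells.

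Of the 13 genes of pyruvate entry, 2 were higher in GCG-rich cells, and both inhibit pyruvate dehydrogenase as PDK1 does. PDK3 stood at 229, 202 and 201 CPM in GCG-rich cells of the positive, negative and unsorted libraries, against 50.5, 71.0 and 54.3 CPM in INS-rich cells (median log2 ratio 1.72). PDK4 stood at 83.1, 65.6 and 79.7 CPM, against 17.8, 17.5 and 19.6 CPM in INS-rich cells (1.60). In TPH1-rich cells MPC1, a subunit of the mitochondrial pyruvate carrier, was higher, at 51.0, 66.4 and 65.0 CPM against 28.0, 32.2 and 29.1 CPM in INS-rich cells. No gene of this list was called in SST-rich cells.

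Of the 8 genes of hypoxia sensing, EPAS1 was lower in GCG-rich cells, at 14.7, 8.22 and 8.18 CPM in the positive, negative and unsorted libraries, against 54.0, 57.4 and 54.5 CPM in INS-rich cells. It was also lower in SST-rich cells, at 16.9, 7.98 and 15.6 CPM. In TPH1-rich cells EPAS1 was below INS-rich cells too, without a call, at 35.3, 16.1 and 16.8 CPM. HIF1A was not called in any of the 3 comparisons; it ranged over 109 to 120.0 CPM in GCG-rich, 109 to 124 CPM in SST-rich and 179 to 217 CPM in TPH1-rich cells, against 116 to 125 CPM in INS-rich cells. Of 21 other hypoxia targets, 6, 6 and 7 passed the filter and 1 was called. VLDLR, a lipoprotein receptor, was lower in GCG-rich (78.3, 74.4 and 71.0 CPM), SST-rich (86.1, 55.6 and 55.7 CPM) and TPH1-rich cells (89.5, 70.7 and 72.5 CPM), against 142, 129 and 130.0 CPM in INS-rich cells. CA9 and ADM, targets often used as signs of hypoxia, stood at 0 to 0.855 and 1.11 to 9.89 CPM over all sums, below the level filter. ADM was at 1.41 to 2.25 CPM in GCG-rich, 1.11 to 6.15 in SST-rich and 2.02 to 3.75 in TPH1-rich cells. In INS-rich cells it was at 7.48 to 9.89 CPM.

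**Figure D3:**
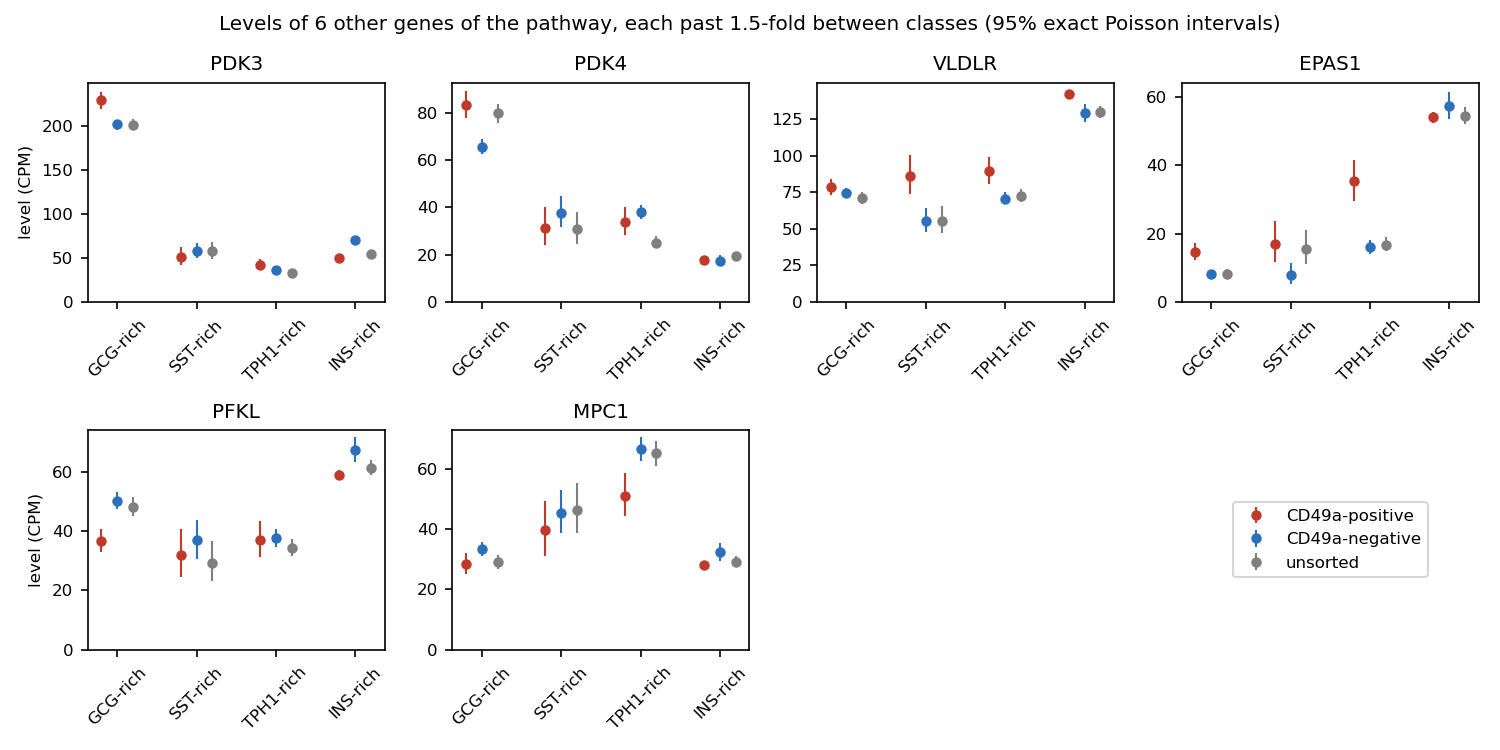
Levels in CPM (vertical axis, from 0, its own scale in each panel) of EPAS1, MPC1, PDK3, PDK4, PFKL and VLDLR, each past 1.5-fold in at least 1 class comparison, with exact 95% Poisson intervals, by cell class and library. EPAS1 and VLDLR are highest in INS-rich cells, PDK3 and PDK4 in GCG-rich cells and MPC1 in TPH1-rich cells.

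Among 4016 genes with a mean of at least 50 CPM, the 3 whose log2 levels over the 12 class and library sums were most like those of VEGFA were VLDLR (Pearson r 0.97), VIL1 (0.97) and ACLY (0.93). Among the members themselves, PGK1 and BNIP3 were most alike (r 0.94), followed by PKM and BNIP3 (0.79), PGK1 and ENO1 (0.71), PGK1 and PKM (0.69), and ENO1 with VEGFA and PKM with LDHA (0.68 each). VEGFA and BNIP3 were at -0.09, and LDHA and VEGFA at -0.38. The 12 sums share libraries and totals, so these are descriptions without a test.

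Single cells were compared after thinning each to 10000 UMIs and leaving out shallower cells. Of the INS-rich cells 241, 34 and 48 were left out (positive, negative, unsorted), and of the TPH1-rich cells 3, 20 and 12. The sum of the 10 genes had a median of 14, 19 and 17 UMIs per GCG-rich cell in the positive, negative and unsorted libraries, 13.5, 21 and 17.5 per TPH1-rich cell, and 17, 20 and 18 per INS-rich cell. LDHA had a median of 0 in every class and library. In INS-rich cells of the positive library its upper quartile was also 0 and its highest value 12 UMIs.

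GAPDH had the largest ratio of variance to mean of the 10 genes in TPH1-rich cells of each library, a measure that grows with the level. Its median was 6, 12 and 9 UMIs in TPH1-rich cells of the positive, negative and unsorted libraries, with quartiles of 2 to 9, 5 to 18 and 3 to 16. In INS-rich cells the medians were 7, 9 and 8 and the quartiles 5 to 9, 6 to 13 and 6 to 11. The variance was 4.91, 6.97 and 7.77 times the mean in TPH1-rich cells, against 1.98, 3.68 and 2.33 times in INS-rich cells. Across TPH1-rich cells of 1 library, thinned GAPDH counts went with the share of ribosomal protein UMIs (r 0.79 over 90 positive, 0.70 over 405 negative and 0.78 over 392 unsorted cells). In the other classes r ranged over 0.35 to 0.58. GAPDH ran against MALAT1, a nuclear RNA, in TPH1-rich cells (r -0.55 to -0.46) and in the other classes (r -0.52 to -0.19). BNIP3 had r of 0.44 to 0.62 and ENO1 of 0.38 to 0.56 with the ribosomal share in TPH1-rich cells, and VEGFA only 0.04 to 0.16. Between members, GAPDH and BNIP3 had r of 0.36 to 0.60 across TPH1-rich cells and 0.14 to 0.18 across INS-rich cells, and LDHA and VEGFA had -0.13 to 0.16 in every set of at least 50 thinned cells. Counts of 1 cell share its total, and no p-value is attached.

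**Figure D4:**
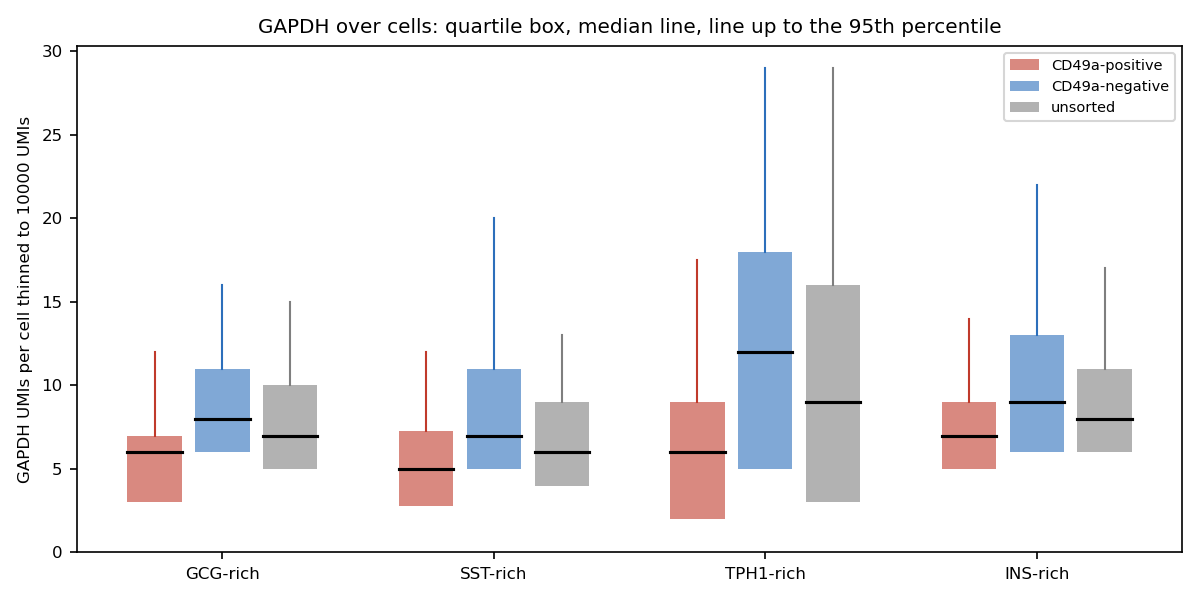
GAPDH UMIs per cell after thinning to 10000 UMIs (vertical axis) in each cell class and library; boxes span the quartiles, black lines are medians and thin lines run to the 95th percentile. TPH1-rich cells of the negative library span quartiles of 5 to 18 UMIs, against 6 to 13 in INS-rich cells of that library.

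The sort comparison asked whether the genes differed between cells gathered for CD49a and cells depleted of it. Over all kept cells, GAPDH was the only member that passed both the level filter and the 1.5-fold limit. Positive cells had 684 CPM (679 to 688), negative cells 1069 CPM (1062 to 1076) and unsorted cells 914 CPM (908 to 919). The ratio of positive over negative was 0.640 (0.634 to 0.646). LDHA had a ratio as far from 1, 0.638 (0.607 to 0.669), at 26.0 CPM in positive, 40.8 CPM in negative and 31.9 CPM in unsorted cells. It lay below the level filter, and its log2 ratio with 10 CPM added was -0.50. Of all 4241 genes compared, 3.42% were lower and 3.42% higher. VEGFA, at 242, 179 and 202 CPM (positive, negative, unsorted), had a log2 ratio of 0.42 for positive over negative, which fell short of the limit.

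Those values mix classes in unequal numbers: INS-rich cells made up 58.2%, 15.8% and 27.4% of kept positive, negative and unsorted cells. Within classes the log2 ratio of VEGFA for positive over negative was 0.06 in GCG-rich, -0.01 in TPH1-rich and 0.16 in INS-rich cells. Per ribosomal protein UMI it was 0.32, 0.50 and 0.21, where the medians of all genes were 0.36, 0.57 and 0.10. On CPM it was 0.17 over all cells when every library was given the class mix of the unsorted library. GAPDH was lower within every class compared, with log2 ratios of -0.54 in GCG-rich, -0.91 in TPH1-rich and -0.53 in INS-rich cells. It passed the limit in TPH1-rich cells, at 740.1 CPM in the positive against 1399 CPM in the negative library (ratio 0.529, 0.509 to 0.550). In that class 12.4% of 4657 genes were lower and 7.75% higher, so many genes differed there. The positive library had 93 such cells and the negative library 425. Cell type markers moved in this comparison too. Of 6 beta markers past the filter, INS, ACVR1C and HADH were higher in the positive library, but 2 had log2 ratios below 0. The list of 9 summed to 14869 CPM in the positive against 9027 CPM in the negative library. INS alone made up 13767 and 8148 CPM of these sums. Of 6 enterochromaffin markers past the filter, 4 had log2 ratios below 0, and FEV, DDC and CBLN1 passed the limit as lower. TPH1 itself, which defines the class, stood at 729 CPM in the positive against 691 CPM in the negative library. The list of 7 summed to 2014 against 2772 CPM. The 5 proliferation markers summed to 66.8 against 26.1 CPM. The part of these differences in the GAPDH result was not tested. In GCG-rich cells no member was called, with 0.466% of 4079 genes lower and 1.23% higher. The same held for INS-rich cells, with 0.398% of 4019 genes lower and 0.348% higher. SST-rich cells were not compared here because the positive library held only 41.

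The calls of GAPDH were lost per ribosomal protein UMI, where the log2 ratio was -0.53 over all cells and -0.37 in TPH1-rich cells. Over all cells the call was also lost under median-of-ratios scaling (-0.56) and with equal weight for every cell (-0.44). In TPH1-rich cells the ribosomal share was 3.74% in the positive and 5.44% in the negative library, and the level of MALAT1 was 19327 CPM in the positive library, against 15333 CPM in the negative library. Beyond that scaling, their part in the GAPDH result was not tested.

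Smaller differences ran the same way in most members. The positive library was below the negative library in all 3 classes for 7 of the 10 genes (PFKP, GAPDH, PGK1, ENO1, PKM, LDHA and BNIP3). For 5 of these, all but PFKP and LDHA, the unsorted library lay between them in all 3 classes. Of all 5019 genes past the level filter in 1 of these 9 sums, 30.2% were lower in the positive library in all 3 classes and 15.1% had the unsorted library between in all 3. Of the 7 members past that filter the counts were 6 and 5. The 3 classes come from the same libraries and are not separate evidence. The interval of the positive over negative ratio included 1 for PFKP in GCG- and TPH1-rich cells and for PGK1 in INS-rich cells. Ratios to the unsorted library were also within counting error for PGK1 and BNIP3 in INS-rich cells. For PGK1 the intervals were 0.951 to 1.03 (positive) and 0.943 to 1.06 (negative), and for BNIP3 0.954 to 1.01 and 0.987 to 1.08. In GCG-rich cells PGK1 had 0.883 to 1.02 for positive over unsorted. PKM had log2 ratios of -0.36, -0.43 and -0.33 for positive over negative in GCG-, TPH1- and INS-rich cells. ENO1 had -0.36, -0.42 and -0.22, and LDHA -0.29, -0.28 and -0.25. Per ribosomal protein UMI these 3 turned positive in TPH1-rich cells (0.09 for PKM and ENO1, 0.16 for LDHA), where the median of all genes moved to 0.57, and stayed below 0 in GCG- and INS-rich cells. On that scale PFKP, PGK1 and BNIP3 also turned positive in TPH1-rich cells (0.43, 0.01 and 0.07), and of the 10 genes only GAPDH was below 0 in all 3 classes (-0.25, -0.37 and -0.47 in GCG-, TPH1- and INS-rich cells). PGK1 in INS-rich cells was also above 0 under median-of-ratios scaling and with cells weighted equally (0.02 in both), as was PFKP in TPH1-rich cells with cells weighted equally (0.02). The median of all 10 members was -0.23, -0.35 and -0.14 in GCG-, TPH1- and INS-rich cells, against 0.08, 0.06 and 0.04 over all genes compared.

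**Figure D5:**
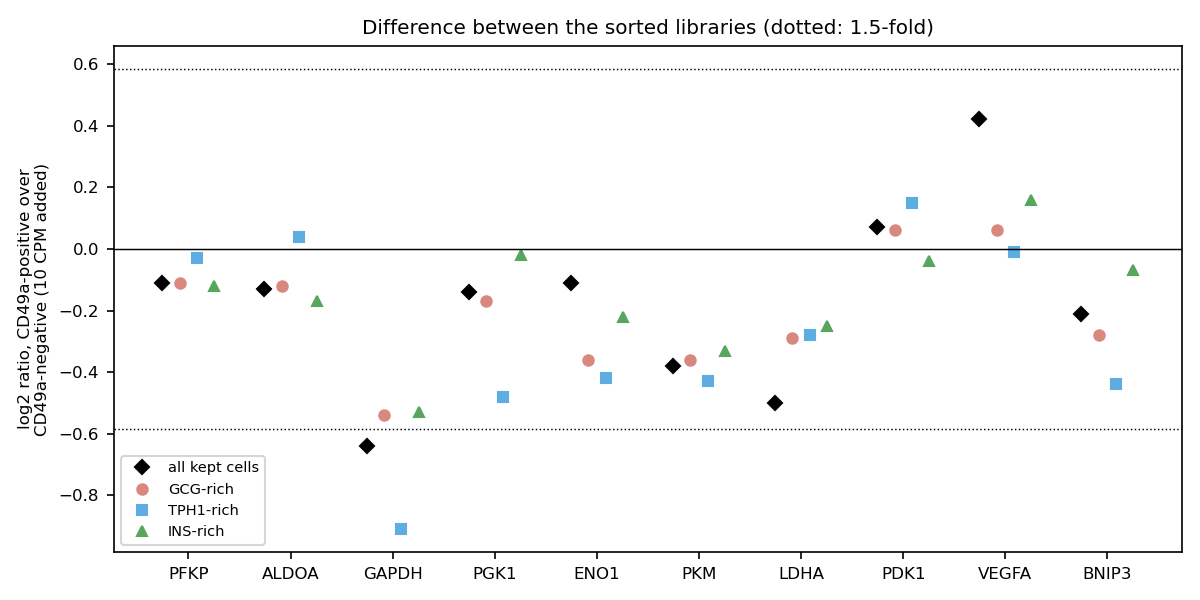
Log2 ratio of each gene in the CD49a-positive over the CD49a-negative library, with 10 CPM added to both sides (vertical axis), over all kept cells and within 3 classes; dotted lines mark 1.5-fold. GAPDH lies lowest in every set of cells, at -0.91 in TPH1-rich cells, and VEGFA stands at 0.42 over all kept cells but between -0.01 and 0.16 within classes.

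Other genes of the pathway that passed 1.5-fold between the sorted libraries did so mainly in TPH1-rich cells. There 3 of the 6 other glycolysis enzymes that passed the filter were lower in the positive library, as were 12.4% of all 4657 genes compared. The 6 are too few to set against that share. Per ribosomal protein UMI the number of all genes lower fell from 578 to 16, and the values of these enzymes on that scale are not given here. TPI1, the triose phosphate isomerase, stood at 180.3 CPM in the positive against 313 CPM in the negative library. PGAM1, a phosphoglycerate mutase, stood at 74.0 against 126 CPM, and ENO2, the neuronal enolase, at 59.5 against 112 CPM. FAM162A, a mitochondrial hypoxia target, was the only 1 of 21 other hypoxia targets past the limit, at 44.0 against 71.2 CPM. FOS and JUNB, early response genes that rise on cell dissociation, were also lower in the positive library in this class, at 63.0 against 112 CPM and 32.3 against 64.6 CPM. None of the lists of glycolysis, carriers, pyruvate entry, hypoxia targets or sensing had a called gene in GCG- or INS-rich cells. Over all kept cells ENO2 (38.6 CPM in the positive against 70.5 CPM in the negative library) and PDK3 (72.0 against 114 CPM) were lower. PDK3, the gene highest in GCG-rich cells, had log2 ratios of 0.18 in GCG-rich, 0.18 in TPH1-rich and -0.42 in INS-rich cells.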

How the data were processed

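The deposited values are UMI counts per gene and barcode, which, per the submitters' processing notes, the authors obtained from Cell Ranger 7.1.0 on GRCh38; the annotation release, the chemistry's end and the counting of introns are not given in the sources used here. Each of the 3 libraries holds 36601 genes. The filter kept barcodes with 1000 genes or more and no more than 20% of UMIs from mitochondria. No doublet caller was run; cells past several class limits were set aside. Limits were INS 40000 CPM, GCG 20000 CPM, SST 20000 CPM and TPH1 200 CPM with at least 3 UMIs. Because cells are no replicates, counts were added up within each class of a library and given as CPM of the sum with exact Poisson intervals; ratio intervals were exact conditional binomial. The 1.5-fold limit is a rule of size, on CPM plus 10. Sort comparisons within a class needed 50 cells in both libraries. Cells were thinned with seed 0.

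Members, lists and class limits were chosen with earlier results of these data known. All 10 members are named; of every other pathway list, at most 3 genes per class comparison with the largest median ratio among those past the limit are named, and in the sort comparison each called gene. A gene that this rule names is not reported here. Likeness used Pearson r. Genes called between sorted libraries, LDHA's list, HK1, HK2, SLC16A1, HIF1A, CA9 and ADM were named after their values were seen. Gene positions came from GENCODE 29 on GRCh38 and promoters from RefSeq; no promoter of VEGFA was used. UMIs of 1 library are not independent samples of the condition, so intervals cover counting error only. Alternatives covered the added count, scaling, filters, class limits and libraries; scaling per ribosomal protein UMI and the class mix were added after seeing the data. Python 3.11.15, numpy 2.4.6, scipy 1.17.1, pandas 2.3.3 and matplotlib 3.10.9 were used.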

Additional observations from a re-analysis of the deposited data

How the results depend on the processing

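The 270 recomputed values were counts of members past 1.5-fold and ratios of the upper to the lower quartile of the 10 members per cell. Of these, 249 were unchanged or within a factor of 1.5 and 21 moved, and no called gene changed direction. Most counts of members were 0 in the main setting, and a 0 that stayed 0 was scored as unchanged. The 249 therefore say little about the called genes, whose counts took most of the moves. Over all kept cells, members lower in positive than negative cells numbered 1, against 2 with 1 CPM added and 0 with median-of-ratios factors, with cells weighted equally and per ribosomal protein UMI. In TPH1-rich cells the count was 1, against 2 with 2000 genes and 10% mitochondrial, 3 with limits halved and 0 per ribosomal UMI; in INS-rich cells it was 0, against 1 with 2000 genes and 10% mitochondrial. Members lower in GCG-rich than in INS-rich cells numbered 1, against 0 with 50 CPM added, with mixed cells assigned and per ribosomal UMI. In SST-rich cells the count was 1, against 2 with median-of-ratios factors and with equal weights, and 0 with 50 CPM added, limits doubled, mixed cells assigned and per ribosomal UMI. In TPH1-rich cells it was 0, against 1 with equal weights and with 2000 genes and 10% mitochondrial, and 0 to 1 when each library was left out in turn (1 without the negative library); per ribosomal UMI 1 member was higher. Of 471 single values 137 moved, 30 of them per ribosomal UMI, and LDHA in SST-rich over INS-rich cells lay below 0 in 2 of 16 settings. The cause of these moves was not tested. Among all genes, TPH1-rich over INS-rich cells had 360 higher and 139 lower, against 261 and 213 with median-of-ratios factors and 1076 and 30 per ribosomal UMI; positive over negative TPH1-rich cells had 361 and 578, against 2608 and 16 per ribosomal UMI. No paired analysis was possible because each group has 1 library. Low counts limit what can be said of ALDOA and PDK1, and of SST-rich cells of the positive library. For ALDOA the part of the overlap with AC093512.2 in the low count was not tested.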

Other observations

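The barcodes left out by the filter belong to no comparison. In the positive library 1988 barcodes had under 1000 genes, with a median of 758 UMIs; 28.2% of their UMIs were mitochondrial and 9.87% ribosomal, and MALAT1 stood at 3927 CPM, against 13861 CPM in kept cells. With mitochondrial UMIs left out of the totals, BNIP3 stood at 294 CPM in these barcodes and 192 CPM in kept cells of the same library (1.53-fold). GAPDH stood at 1103 and 747 CPM (1.48-fold), LDHA at 39.3 and 28.4 CPM (1.38-fold), VEGFA at 229 and 265 CPM (0.863-fold) and PKM at 171 and 202 CPM (0.847-fold). In the negative library the 412 such barcodes were 68.1% mitochondrial, and BNIP3 stood at 226 CPM in them and 223 CPM in kept cells. In the unsorted library the 368 such barcodes were 65.3% mitochondrial, with BNIP3 at 1.27-fold its level in kept cells. For the negative and unsorted libraries GAPDH was at 1.03- and 1.29-fold, VEGFA at 1.32- and 1.01-fold and PKM at 0.703- and 0.821-fold. LDHA was at 1.34- and 1.43-fold, on only 16 and 13 UMIs.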
